A study of Sus scrofa with 6 samples.

Results

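The predicted microRNA unconservative_1_52628 is 1 of 898 microRNAs (miRNAs) listed for skin of the pig (Sus scrofa) breed Xiang, which is small and comes from China. It is 1 of 618 that carry a predicted identifier, and 280 carry a miRBase-style porcine name. It was chosen by its difference between black and white skin in these same libraries, so its levels, ranks and folds are a description and carry no test. Small RNA was sequenced from 3 libraries of black skin (S03, S04 and S05) and 3 of white skin (S02, S06 and S07). All were labelled as the same breed, tissue and preservative. Genotype, sex, age, body site, animal and batch are not given in the labels, which do not state whether each library is a different animal, so spreads and p-values here may be technical.

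A miRNA is a short RNA cut from a hairpin precursor, and it guides a protein complex to messenger RNAs that pair with its seed, the bases near its 5′ end. A program predicts one where reads pile up on sequence that could fold into such a hairpin, without a match to a known miRNA, and such predictions include fragments of other RNAs. Skin colour in mammals depends on melanocytes, which make melanin and pass it to keratinocytes. The series studies ssc-miR-221-3p and its target TYRP1, an enzyme of melanin synthesis, and says nothing in its labels of the predicted miRNA described here. No sequence, position or precursor of unconservative_1_52628 is given in the sources used here, nor what the parts of its identifier stand for. Its seed and the RNA it derives from were not analysed here.

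The libraries held 7332769 (S04) to 8647930 (S05) reads in black skin and 6454685 (S06) to 10165949 (S07) reads in white skin. Values are listed miRNA reads scaled to 1000000 per library (RPM), in which 1 read was worth 0.0984 to 0.155. The first principal component of log2(RPM + 1), with 50.9% of the variance, separated the colours. On the second, with 20.3%, the white library S02 stood at -9.24, against 2.77 for S06 and 6.10 for S07. The epithelial miRNA ssc-miR-205 was abundant at 14237 RPM in black skin, against 19830 RPM in white skin, and ssc-miR-203, another keratinocyte miRNA, was not among the listed names.

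unconservative_1_52628 was well covered in every black library and close to the level of single reads in every white one. It was counted in 508 reads in S03, 418 in S04 and 913 in S05 of black skin, against 2 reads in S02, 1 in S06 and 3 in S07 of white skin. In the same order this amounts to 65.6, 57.0 and 106 RPM for black skin and to 0.274, 0.155 and 0.295 RPM for white skin. The groups did not overlap, and the lowest black library was 193 times the highest white one. The means were 76.1 ± 25.9 RPM in black skin, against 0.241 ± 0.0756 RPM in white skin (SD, n = 3 each). Over the pooled reads the ratio was 309, with an exact conditional 95% interval of 142 to 843. This interval, like all others given here, covers counting error of reads only, and not the spread between libraries. It also treats PCR copies of 1 molecule as separate reads. On the log2(RPM + 1) scale the difference, black minus white, was 5.91, and it understates the change because white skin lies far below the pseudocount of 1. Without S02, the white library that stood apart, it was 5.93. In bulk skin, fewer cells that make a miRNA and less of it per cell cannot be told apart.

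**Figure D1:**
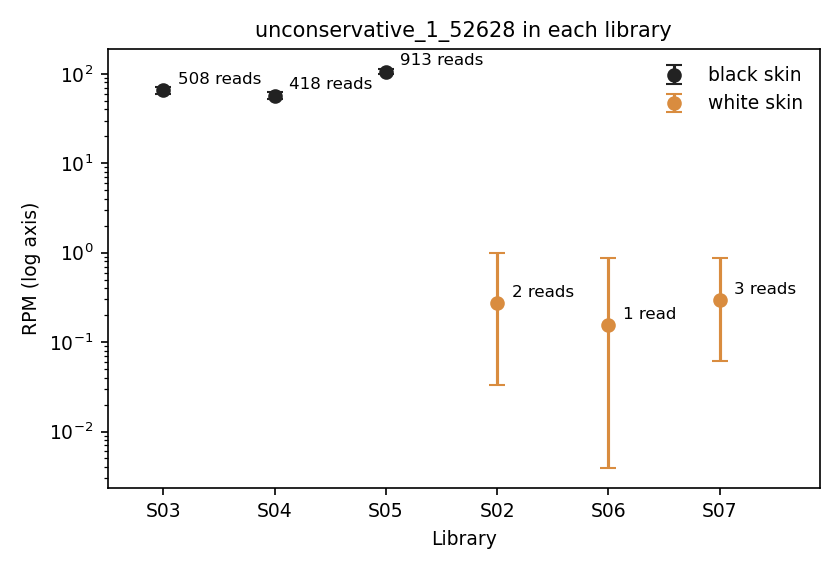
RPM of unconservative_1_52628 on a log axis in the 3 black libraries and the 3 white libraries, with exact Poisson 95% intervals of the reads as bars and the read numbers beside the points. The black libraries lie between 57.0 and 106 RPM, and the white ones between 0.155 and 0.295 RPM.

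The order of the libraries was S05, S03, S04, S07, S02 and S06 from high to low. Within black skin S05 was 1.61 times S03, and their exact Poisson 95% intervals were apart at 98.8 to 113 RPM and 60.0 to 71.5 RPM. S03 was 1.15 times S04, whose interval of 51.7 to 62.7 RPM overlapped that of S03, so no order between these 2 is read. In white skin the 3 intervals overlapped one another, at 0.0609 to 0.862 RPM for S07, 0.0332 to 0.990 RPM for S02 and 0.00392 to 0.863 RPM for S06. No order among the white libraries can be read from 1 to 3 reads.

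The depth of the white libraries would have allowed many more reads. At the mean RPM of black skin, S02 would have held 555 reads, S06 491 and S07 773. The 3 white counts stand at or under 3 reads, the level taken here as the floor of counting. Many other listed miRNAs shared these low counts: 68 others had exactly 2 reads in S02, 84 had exactly 1 in S06 and 49 had exactly 3 in S07. In white skin the predicted miRNA thus stood among the scarcest rows of the table.

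Its rank by RPM shows the same contrast within each library. Among all 898 listed miRNAs it ranked 152 in S03, 158 in S04 and 136 in S05 of black skin, and 685 in S02, 719 in S06 and 665 in S07 of white skin. Among the 618 predicted identifiers it ranked 20, 24 and 17 in S03, S04 and S05, and 429, 455 and 403 in S02, S06 and S07. No other row of the table had the same values in every library (0 rows).

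The named miRNAs nearest to it in black level were well covered in white skin too. The nearest in mean level was ssc-miR-504, at 74.0 ± 6.52 RPM in black skin, against 91.3 ± 18.8 RPM in white skin (SD, n = 3 each; limma, adjusted p = 0.534). Next was ssc-miR-192, best known from liver and gut, at 73.1 ± 10.1 RPM in black skin, against 53.4 ± 7.78 RPM in white skin (SD, n = 3 each; limma, adjusted p = 0.287). A ratio to such a miRNA within 1 library does not depend on scaling. The reads of unconservative_1_52628 were 0.983, 0.753 and 1.33 times those of ssc-miR-504 in S03, S04 and S05 of black skin, against 0.00248, 0.00172 and 0.00404 times in S02, S06 and S07 of white skin. Against ssc-miR-339 the ratios were 0.915, 0.598 and 1.26 in the same black libraries and 0.00262, 0.00194 and 0.00330 in the same white libraries. With both partners S05 was highest and S04 lowest in black skin.

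In all, 60 other tested miRNAs had a black mean within 2-fold of that of unconservative_1_52628. Their median white mean was 64.3 RPM, and the lowest white mean among them was 17.5 RPM, in unconservative_15_1640126, which measured 46.9 RPM in black skin. The black libraries varied more for unconservative_1_52628 than for most of these 60. Its coefficient of variation in black skin was 34.1%, against a median of 19.9%, and 13 of the 60 had a larger one. The order S05, S03, S04 in black skin was shared by 15 of the 60 and by 87 of the 454 tested miRNAs, unconservative_1_52628 included.

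Across the whole table, few other miRNAs came near it in the size of their difference. In the test over all 454 miRNAs with enough reads, 32 (7.05%) passed an adjusted p of 0.05 for black minus white (limma with Benjamini-Hochberg adjustment). Black skin was higher for 18 (3.96%) and lower for 14 (3.08%). edgeR on the recovered reads called 13 higher and 17 lower. The groups did not overlap for 124 of the 454 (27.3%). The chosen miRNA is among the 32 and the 124, and nothing is read from that, since it was chosen on this contrast. Its difference of 5.91 was the largest in size, followed by ssc-miR-196b-5p at -5.35, ssc-miR-196a at -2.57, ssc-miR-206 at -2.56 and ssc-miR-224 at -2.28. These next 4 were all lower in black skin by this value, and the next on the black side was the blood cell miRNA ssc-miR-142-3p at 1.96. Of the 4, ssc-miR-206 did not pass (limma, adjusted p = 0.0804), and its reads in white skin ran from 92 in S02 to 1168 in S07.

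**Figure D2:**
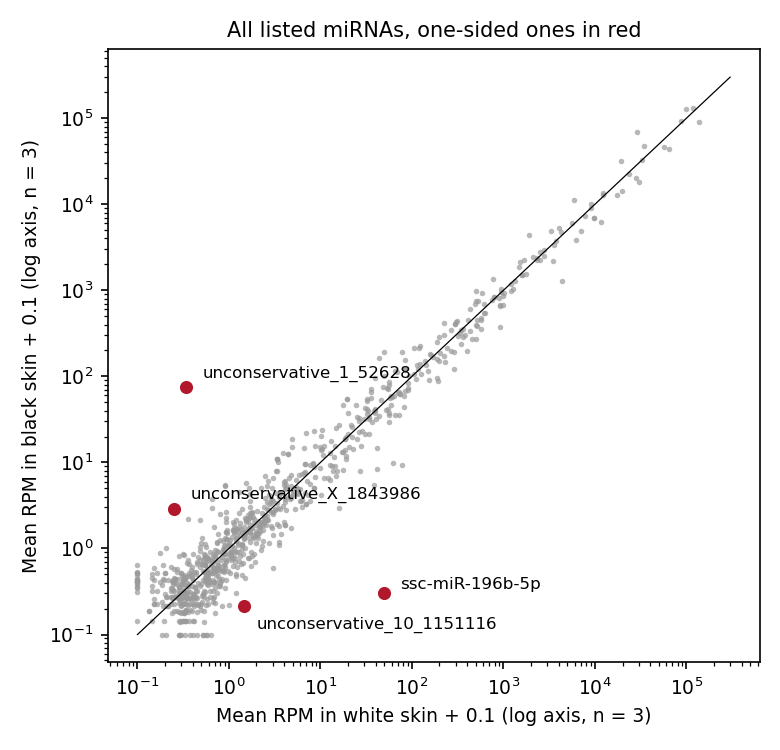
Mean RPM in black skin (vertical) against mean RPM in white skin (horizontal) for all 898 listed miRNAs, with 0.1 added and log axes, and the line of equal levels. The 4 one-sided miRNAs are red, and unconservative_1_52628 lies above the line at 76.1 RPM in black skin, against 0.241 RPM in white skin.

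One-sided rows were taken as those with at least 30 reads in all and at least 90% of the summed group means in 1 colour. Of 565 rows with that many reads, 2 met this on the black side and 2 on the white side. unconservative_1_52628 had 99.7% of its summed group means in black skin. The other black-sided row was the scarce unconservative_X_1843986, with 94.8% in black skin and 10, 17 and 40 reads in S03, S04 and S05, against 0, 1 and 3 reads in S02, S06 and S07. It had too few reads to be tested. Just outside the limit stood ssc-miR-1277, with 89.0% in black skin, from 50 reads in black skin, against 7 in white skin. The median over the 565 rows was 49.6% in black skin.

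The white-sided rows were a mirror image at a similar depth. ssc-miR-196b-5p, encoded in a HOX cluster, whose genes pattern the body axis, had 1, 1 and 3 reads in S03, S04 and S05 of black skin, against 453, 286 and 409 reads in S02, S06 and S07 of white skin. Its share in black skin was 0.416%, beside 0.316% in white skin for unconservative_1_52628. The other was unconservative_10_1151116, with 3 reads in black skin, against 33 in white skin. Just outside the limit was the muscle miRNA ssc-miR-206, with 10.6% in black skin. It had 113, 35 and 71 reads in S03, S04 and S05, against 92, 684 and 1168 reads in S02, S06 and S07. No row with at least 30 reads lacked reads altogether in either colour (0 on each side). Each one-sided row thus kept a few reads in its low colour, though not always in every library. Rows with fewer than 30 reads are not covered by this.

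The identifiers that begin with unconservative_1_ give a set that the values did not choose. There were 56 of them besides unconservative_1_52628, and 15 had enough reads to be tested. The rows of unconservative_1_146142 and unconservative_1_146240 were identical, so the 15 held 14 distinct profiles, and the 56 held 54. Of the 15 tested, 1 was called higher and 0 were called lower in black skin (limma), beside 3.96% and 3.08% over all tested miRNAs. Their median difference was -0.13 on the log2(RPM + 1) scale, from -0.81 to 1.72, beside a median of 0.00 over all 454. The groups did not overlap for 5 of the 15, beside 27.3% over all tested. The called one was unconservative_1_93424, at 5.26 ± 3.05 RPM in black skin, against 0.796 ± 0.425 RPM in white skin (SD, n = 3 each; difference 1.72, limma adjusted p = 0.0324). Its reads equalled those of unconservative_6_663466 in 5 of 6 libraries, and whether the 2 identifiers share reads was not tested. The call was lost with a pseudocount of 10 (adjusted p = 0.0659) and without S03 (0.0922), S05 (0.109), S06 (0.124) or S07 (0.0672).

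The summed RPM of the other 56 overlapped between the colours, at 162 (S03), 158 (S04) and 213 RPM (S05) for black skin, against 155 (S02), 210 (S06) and 129 RPM (S07) for white skin. Against this even total, unconservative_1_52628 alone made up 28.8, 26.5 and 33.1% of the RPM of all identifiers with this start in the black libraries and 0.177, 0.0736 and 0.229% in the white libraries. It ranked 1 among them in S03 and S05 and 2 in S04, and between 34 and 39 in the white libraries.

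The nearest identifiers by number had 18.1 to 70.3% of their summed group means in black skin, beside 99.7% for unconservative_1_52628. The 5 below and the 5 above it ran from unconservative_1_43153 to unconservative_1_71383, and 3 of the 10 were tested, with 0 called, beside 7.05% over all tested miRNAs, so the count says nothing about these 3. The most abundant of them, unconservative_1_47958, stood at 37.6 (S03), 64.2 (S04) and 94.6 RPM (S05) for black skin, against 61.0 (S02), 108 (S06) and 45.7 RPM (S07) for white skin (difference -0.13, limma adjusted p = 0.888). Its groups overlapped, at a level like that of unconservative_1_52628 in black skin. The nearest below, unconservative_1_51264, had 1, 0 and 3 reads in black skin, against 2, 4 and 1 reads in white skin, too few to test. The nearest above, unconservative_1_56455, measured 1.03, 1.09 and 1.16 RPM in black skin, against 1.51, 1.70 and 1.57 RPM in white skin (difference -0.31, limma adjusted p = 0.443). The third tested one, unconservative_1_48294, measured 1.55, 1.77 and 1.97 RPM in black skin, against 2.60, 3.56 and 5.80 RPM in white skin (difference -0.81, limma adjusted p = 0.139). The other 7 stayed at or under 1.37 RPM in every library.

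**Figure D3:**
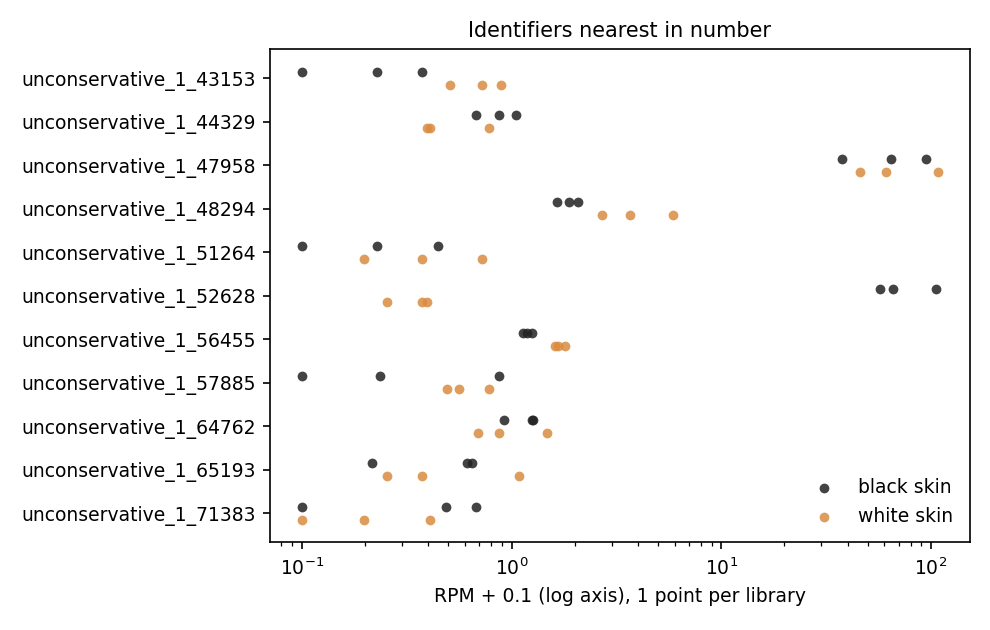
RPM in each library, with 0.1 added and on a log axis, for unconservative_1_52628 and the 5 identifiers nearest below and above it in number, with black skin drawn above white skin in each row. The colours are far apart for unconservative_1_52628, and unconservative_1_47958 is near its black level in both colours.

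The miRNAs whose profile was most like it in shape were sought by Pearson's r on log2(RPM + 1) over the 6 libraries, among 453 other tested miRNAs. As unconservative_1_52628 itself was split by colour, r mostly reflects a step between black and white skin and is given with no p. The 10 most alike all had a miRBase-style name, and r ran from 0.969 to 0.921, with 0.917 for the first one left out. The measure chose them for being higher in black skin, so their direction is no finding. In size none came near: their ratios of black to white means ran from 1.34 to 5.45, and their differences from 0.42 to 1.88.

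The closest in shape was ssc-miR-28-5p (r = 0.969), at 313 (S03), 294 (S04) and 289 RPM (S05) for black skin, against 226 (S02), 215 (S06) and 229 RPM (S07) for white skin. Its step was small and even, 1.34-fold between the means. The second was ssc-miR-143-3p (r = 0.966), a miRNA enriched in smooth muscle, at 69866 ± 10297 RPM in black skin, against 28574 ± 3838 RPM in white skin (SD, n = 3 each). The third, ssc-miR-32 (r = 0.962), measured 206, 141 and 140 RPM in the black libraries and 41.9, 35.5 and 52.0 RPM in the white libraries, with S03 and not S05 highest. ssc-miR-490 (r = 0.950) was scarce, at 5.03, 3.68 and 4.51 RPM in black skin, against 1.37, 0.620 and 1.57 RPM in white skin. ssc-miR-30e-5p (r = 0.942) measured 967, 808 and 1015 RPM in black skin, against 629, 503 and 612 RPM in white skin. The others were ssc-miR-24-2-5p, ssc-miR-7143-3p, ssc-miR-181c, ssc-miR-130a and ssc-miR-450a. Of the 10, 3 shared the order S05, S03, S04 within black skin: ssc-miR-30e-5p, ssc-miR-181c and ssc-miR-130a. The membership depended on the libraries, since 2 of the 10 stayed among the 10 most alike without S02, and 5 or 6 without any other single library.

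**Figure D4:**
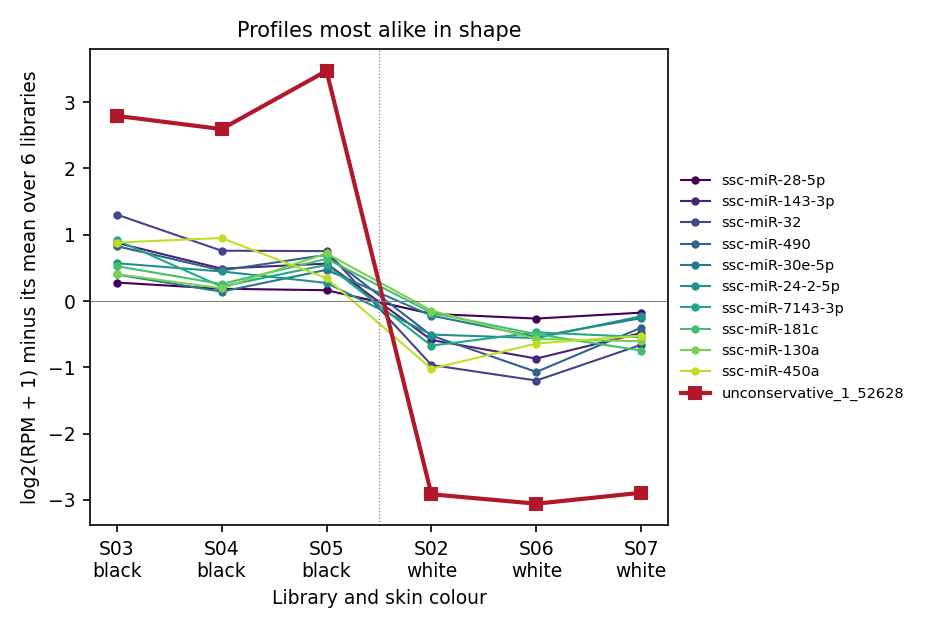
log2(RPM + 1) in each library minus the mean over the 6 libraries, for unconservative_1_52628 (red squares) and the 10 miRNAs most like it by Pearson's r, with black libraries left of white ones. The red line has a step of 5.91 between the colours, and the other lines have steps of 0.42 to 1.88.

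The precursors of the 5 most alike lie on separate chromosomes in the RefSeq annotation of Sscrofa11.1. MIR28 lies on chromosome 13 at 126282167 to 126282252, within the span of LPP. MIR143 lies on chromosome 2 at 150578738 to 150578817, within the span of IL17B. MIR32 lies on chromosome 1 at 250115904 to 250115973, within the span of TMEM245. MIR490-1 lies on chromosome 18 at 12568196 to 12568274, within the span of CHRM2, and MIR30E on chromosome 6 at 170429841 to 170429920, within the span of NFYC. No position of unconservative_1_52628 is known here to set beside them.

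For 4 of 10 lists of miRNAs known from particular cells or body positions, the summed level did not overlap between the colours. The share over single tested miRNAs was 27.3%, so nothing is read from this count. Summed over the list, smooth muscle miRNAs (miR-143 and miR-145, 4 of 4 rows tested) measured 64998 to 84502 RPM in black skin, against 26728 to 34192 RPM in white skin. Nearly all of this sum was ssc-miR-143-3p, at 69866 RPM in black skin, against 28574 RPM in white skin (limma, adjusted p = 0.00314). It was the only 1 of the 4 rows called higher, beside 3.96% over all tested. The other rows did not pass (limma, adjusted p = 0.119 to 0.433). Both arms of the endothelial miR-126 together measured 28989 to 35451 RPM in black skin, against 17322 to 23899 RPM in white skin. Of these 2 rows 2 were called higher in black skin (limma, adjusted p = 0.0423 each), beside 3.96% over all tested. The list taken here as melanocyte-enriched, of which 5 of 10 names had a row, measured 7712 to 9374 RPM in black skin, against 10743 to 11876 RPM in white skin. Whether its members are particular to melanocytes in this skin was not tested, and nothing about melanocytes is read from the sum. Most of this sum was ssc-miR-182, at 4884 ± 751 RPM in black skin, against 7040 ± 1293 RPM in white skin (SD, n = 3 each; limma, adjusted p = 0.138). Of the 6 rows of the list 1 was called, ssc-miR-221-3p, which fell by 1.24 (limma, adjusted p = 0.0318), beside 7.05% over all tested. Its call was kept without S02 (adjusted p = 0.00468) and lost without any other single library (0.0520 to 0.108). The values of 2 members were above 0 without passing, 0.82 for ssc-miR-204 and 0.19 for ssc-miR-146a-5p (limma, adjusted p = 0.0804 and 0.744). Among that list miR-211, miR-137, miR-508, miR-509 and miR-514 were not among the listed names. HOX-cluster miRNAs (5 of 5 names) measured 11288 to 17386 RPM in black skin, against 19833 to 24512 RPM in white skin. ssc-miR-10b made up most of this sum, at 12658 RPM in black skin, against 17592 RPM in white skin (limma, adjusted p = 0.154). Of the 6 rows of the list 5, all but ssc-miR-10b, were called lower in black skin (limma), beside 3.08% over all tested. The part of these 4 lists in the difference of unconservative_1_52628 was not tested.

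The summed levels of the other lists overlapped between the colours, though the leukocyte and the mesenchymal list each held 1 called row. Leukocyte miRNAs (4 of 5 names, miR-223 not among the listed names) measured 1539 to 2296 RPM in black skin, against 1232 to 2425 RPM in white skin. Of the 5 rows of this list 1 was called, ssc-miR-142-3p, higher in black skin (limma, adjusted p = 0.0324), beside 3.96% over all tested. Erythroid miRNAs (3 of 3 names) measured 994 to 4298 RPM in black skin, against 1723 to 4914 RPM in white skin. Epithelial and keratinocyte miRNAs (2 of 7 names) measured 11808 to 16941 RPM in black skin, against 15361 to 23062 RPM in white skin. Fibroblast and mesenchymal miRNAs (4 of 4 names) measured 23818 to 31769 RPM in black skin, against 24371 to 37201 RPM in white skin, with the identical rows of the 3p arms of miR-199a and miR-199b counted once. Of the 6 rows of this list 1 was called, ssc-miR-214, lower in black skin (limma, adjusted p = 0.0408), beside 3.08% over all tested. Striated muscle miRNAs (5 of 6 names) measured 959 to 1604 RPM in black skin, against 678 to 2017 RPM in white skin. Neural miRNAs (3 of 4 names, with ssc-miR-129a taken for miR-129) measured 199.8 to 284 RPM in black skin, against 234 to 289 RPM in white skin, with the identical rows of ssc-miR-9 and ssc-miR-9-1 counted once. No tested row of the erythroid, epithelial, striated muscle or neural lists was called (limma), beside 7.05% over all tested.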

How the data were processed

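The table that the authors deposited holds RPM, as its columns each total 1000000. Per the submitters' processing notes, Bowtie (version not stated) and the build Sscrofa11.1 had some role in making it. The counter, the miRNA database and the tool and filters behind predicted identifiers are not given in any source used here. All 6 columns of values were used (0 left out). In each library 100% of values were whole multiples of the smallest non-zero value (tolerance 0.001), which gave the reads. RPM are shares, and shift when an abundant miRNA changes.

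Black and white libraries were compared on log2(RPM + 1) with limma 3.58.1 (R 4.3.3), using an intensity trend, and p-values were adjusted by Benjamini-Hochberg. The fit covered the 454 miRNAs kept by filterByExpr of edgeR 4.0.16 (minimum count 10, minimum total 15), and was checked on simulated data. DESeq2 1.42.0 and edgeR on the reads were alternatives. The labels give no animal and no pairing between black and white libraries, so no pairing was fitted, and whether any are paired is not known. Chi-square over degrees of freedom was at least 249 between any 2 libraries, so none was a copy of the reads of another. This does not show whether any 2 libraries came from the same animal. Intervals of reads are exact Poisson, at 95%.

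The miRNA and the lists were chosen with earlier results of these data known. The text names unconservative_1_52628, the 10 miRNAs most like it, one-sided rows, the 5 nearest identifiers on each side and the marker lists. The miRNAs nearest in level or difference, those just outside a limit, unconservative_1_93424, unconservative_X_1843987 and ssc-miR-205 were named after their values were seen. Counting identical rows once in the marker sums, and taking ssc-miR-129a for miR-129, were also chosen after seeing the data.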

Additional observations from a re-analysis of the deposited data

How the results depend on the processing

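The black-minus-white difference of unconservative_1_52628 (5.91) kept its sign under every alternative run and was the largest in size in all 14 fits over all miRNAs. Nothing is read from this sign and rank, since the miRNA was chosen on this contrast in these same libraries. The difference was 7.78 with a pseudocount of 0.1 and 3.03 with a pseudocount of 10. It was 7.21 with the 10 most abundant miRNAs left out before scaling, which raises all RPM relative to the pseudocount. TMM factors, RLE factors, leaving out the other predicted miRNAs and leaving out 1 library moved it by less than the spread between replicates. Over all miRNAs the 32 calls became 53 with DESeq2 and 7 to 41 without 1 library (S03 9, S04 18, S05 7, S02 41, S06 7, S07 14). Among the other tested identifiers that begin with unconservative_1_, the 1 call became 0 with a pseudocount of 10, 2 with DESeq2 and 0 to 1 without 1 library (0 without S03, S05, S06 or S07). Of the 10 miRNAs most alike, 3 were shared with Spearman's rho, 2 with the distance of centred profiles and 2 to 6 without 1 library (S03 5, S04 5, S05 6, S02 2, S06 6, S07 5). The 4 one-sided rows became 2 at a share of 95%, 17 at 80%, 2 at 100 reads or more and 4 to 7 without 1 library (7 without S02). unconservative_1_52628 was among them each time, and nothing is read from that either. The cause of these changes was not tested. Depth limits the white level to an order of magnitude, since it rests on 6 reads.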

Other observations

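A pair of predicted identifiers with consecutive numbers also stood on the black side. unconservative_X_1843986 measured 1.29 (S03), 2.32 (S04) and 4.63 RPM (S05) for black skin, against 0 (S02), 0.155 (S06) and 0.295 RPM (S07) for white skin. unconservative_X_1843987, named after its values were seen, measured 3.67 ± 2.62 RPM in black skin, against 0.554 ± 0.353 RPM in white skin (SD, n = 3 each), from 49, 8 and 31 reads in the black libraries and 7, 2 and 4 reads in the white libraries. The first was highest in S05 and the second in S03, so they did not share their order within black skin. Neither had enough reads to be tested.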
